A study of Mus musculus with 4 samples.

Results

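The 10 genes described here encode the parts of the class II antigen presentation pathway of the mouse, and were chosen by name from the 32285 genes of the count matrices. They are the chain genes H2-Aa, H2-Ab1 and H2-Eb1, the invariant chain Cd74, the peptide editor genes H2-DMa, H2-DMb1 and H2-DMb2, the editor's inhibitor H2-Oa, the transactivator Ciita and the costimulatory ligand Cd86. The rule of the choice used no measured value, though earlier results of these data were known when it was made. All 10 were found in the matrices. Tibial muscles of Nse-Bmp4 mice were profiled by 10x single-cell RNA sequencing without injury and at 1, 3 and 7 days after injury (dpi) with cardiotoxin, a snake venom toxin that kills muscle fibres. All 4 groups, Uninjured included, carried the same transgene on a C57BL/6 background and came from mice aged 6 to 8 weeks. In this transgene a neuron-specific enolase promoter drives Bmp4, a bone-inducing growth factor, and injured muscle of such mice goes on to form cartilage and bone, so no group shows muscle without the transgene. Each group was 1 library made from a pool of 3 muscles. Library and time point therefore cannot be told apart, no test of a time point is possible, and every interval below is a 95% interval for counting error only.

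Class II molecules are surface proteins, built from an alpha and a beta chain, that show peptides from digested proteins to CD4 T cells. The invariant chain encoded by Cd74 guides new chains into endosomes, where the DM proteins exchange its remnant for other peptides and the DO proteins hold DM back. Dendritic cells, B cells and macrophages are the usual presenters, and Ciita is the coactivator that switches the promoters of this family on. C57BL/6 mice carry a haplotype whose Ea gene is a pseudogene, so the H2-Eb1 chain has no partner in them although the gene is transcribed.

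The libraries held 11722 to 23752 cells, with a median of 3083 to 8629 UMIs (unique molecular identifiers, each marking 1 captured mRNA molecule) per cell. After filters on depth, mitochondrial share and predicted doublets 52853 of 62665 cells remained, and 41414 of these were placed in 1 class by marker genes that included no gene of the family. That share differed between libraries, from 93.9% of the Uninjured cells to 69.0% of the cells at 7 dpi, and the cells left without a class held 25.1 to 44.9% of a library's UMIs of the 3 chain genes. Of the tissue itself, 718 muscle progenitors were found, with Myog, Myod1 and Pax7 among their leading genes. Each class named below, apart from nonclassical monocytes, had at least 1 of its own markers among its 10 leading genes. For nonclassical monocytes no leading genes were listed. The leading genes of both conventional dendritic classes also included H2-Ab1, H2-Eb1, H2-Aa and Cd74. From 30 to 95 cell barcodes were shared by a pair of libraries. Levels are given as CPM, UMIs of a gene per 1000000 UMIs of all cells of a class in a library, and class by library sums under 20 cells are named as such. UMIs count molecules, so levels were not divided by gene length, and the capture of different mRNAs may still differ.

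Of the 10 genes, 7 lie on chromosome 17 within 224.3 kb (GRCm38, 34092340 to 34316674), in the order H2-Oa, H2-DMa, H2-DMb2, H2-DMb1, H2-Ab1, H2-Aa and H2-Eb1, and of these H2-Aa alone is on the minus strand. Ciita and Cd86 lie apart from each other on chromosome 16. Promoters of the family are known for a conserved pair of elements, the X box bound by the RFX factors and, closer to the gene, the Y box bound by NF-Y. RefSeq promoter windows of 300 bases (250 before to 50 after a gene's start, GRCm38.p6) were at hand for 6 of the 10 genes. They were searched on both strands for TGATTGG, the Y box core, and for GNAAC placed 19 to 26 bases before it, as the start of an X box. The Y box letters stood in the windows of 5 of the 6 genes, against 7.82% of all 32851 windows. The pair stood in those of 4 genes, H2-Aa, H2-Eb1, H2-DMb1 and H2-Oa, against 0.192% of all windows. The stretches below hold these matches, each read 5′ to 3′ on the gene's own strand, with the GNAAC and TGATTGG letters in capitals. Whether these letters bear on the level of any gene was not tested.
H2-Aa (chr17:34287839-34287918, minus strand): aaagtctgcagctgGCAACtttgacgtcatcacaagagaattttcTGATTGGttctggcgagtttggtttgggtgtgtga
H2-Eb1 (chr17:34305761-34305840, plus strand): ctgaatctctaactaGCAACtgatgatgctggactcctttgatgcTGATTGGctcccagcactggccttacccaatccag
H2-DMb1 (chr17:34153083-34153162, plus strand): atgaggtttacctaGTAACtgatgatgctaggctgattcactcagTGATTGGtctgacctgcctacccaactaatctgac
H2-DMb2 (chr17:34145112-34145191, plus strand): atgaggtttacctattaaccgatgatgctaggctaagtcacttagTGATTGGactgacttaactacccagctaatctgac
H2-Oa (chr17:34092289-34092368, plus strand): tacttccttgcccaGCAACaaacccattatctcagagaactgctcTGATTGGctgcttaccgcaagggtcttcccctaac

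The 5 stretches are 80 bases long and lie before the gene starts listed by RefSeq, while the GENCODE bounds of H2-Oa, H2-DMb1 and H2-DMb2 begin within or before them. Between the 2 motifs lay 25 bases in H2-Eb1 and 26 bases in H2-Aa, H2-DMb1 and H2-Oa. The H2-DMb2 stretch kept the Y box letters and lacked the GNAAC letters, while both windows of H2-DMa, which has 2 listed starts, held neither motif. A match is a description of letters and not a shown binding site, and a missing match says only that these letters are not in this window.

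Class II chain mRNA was concentrated in antigen-presenting cells, and type 2 dendritic cells, the conventional dendritic cells that mainly stimulate CD4 T cells, stood highest in each of the 4 libraries. The summed level of the 3 chains in type 2 dendritic cells was 36579 CPM in Uninjured muscle, 25900 at 1 dpi, 30523 at 3 dpi and 32787 at 7 dpi, from 78, 63, 256 and 27 cells. Type 1 dendritic cells, which are known for presenting to CD8 T cells, came next at 20175 CPM at 1 dpi and 24304 at 3 dpi, the only libraries with 20 or more of them. Mature dendritic cells, which have switched on Ccr7 for the journey to lymph nodes, held 18723 CPM in 57 cells at 3 dpi.

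Below the conventional dendritic cells the order of classes changed with the library. Macrophages stood above B cells in Uninjured muscle (16276 against 10464 CPM), at 3 dpi (10564 against 4033) and at 7 dpi (15949 against 9139), and below them at 1 dpi (3265 against 9190). Classical monocytes, the blood cells that turn into macrophages in injured muscle, were lowest of these 4 in the Uninjured, 1 dpi and 7 dpi libraries, with 5290, 1903 and 5288 CPM, and stood above B cells at 3 dpi with 6412 CPM. Plasmacytoid dendritic cells, specialised producers of type I interferon, held 3952 CPM at 3 dpi, where their interval (3756 to 4156) overlapped that of B cells (3871 to 4200).

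Among classes of 20 or more cells, a wide gap separated these 7 from the others. Nonclassical monocytes, left out of the order with 19 cells in all, lay on the high side of it at 3126 CPM (2773 to 3512). Over the 4 libraries pooled, classical monocytes held 3015 CPM and T cells, the next class in the order, 218 CPM, a 13.9-fold step (13.2 to 14.6). The classes just below, T cells, B progenitors (211 CPM), plasma cells (206 CPM) and mast cells (154 CPM), did not differ from their neighbours in the order beyond the counting intervals. Muscle progenitors were the lowest class at 39 CPM, and mural cells of the vessel wall came next at 45.7 CPM. The ratio of these last classes was 1.17, with an interval that held 1 (0.974 to 1.415). In single classes the UMIs came from very few cells. Of 555 chain UMIs in T cells at 7 dpi, 508 were in 3 cells, and of 188 in Schwann cells at 1 dpi, 141 were in 1 cell.

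**Figure D1:**
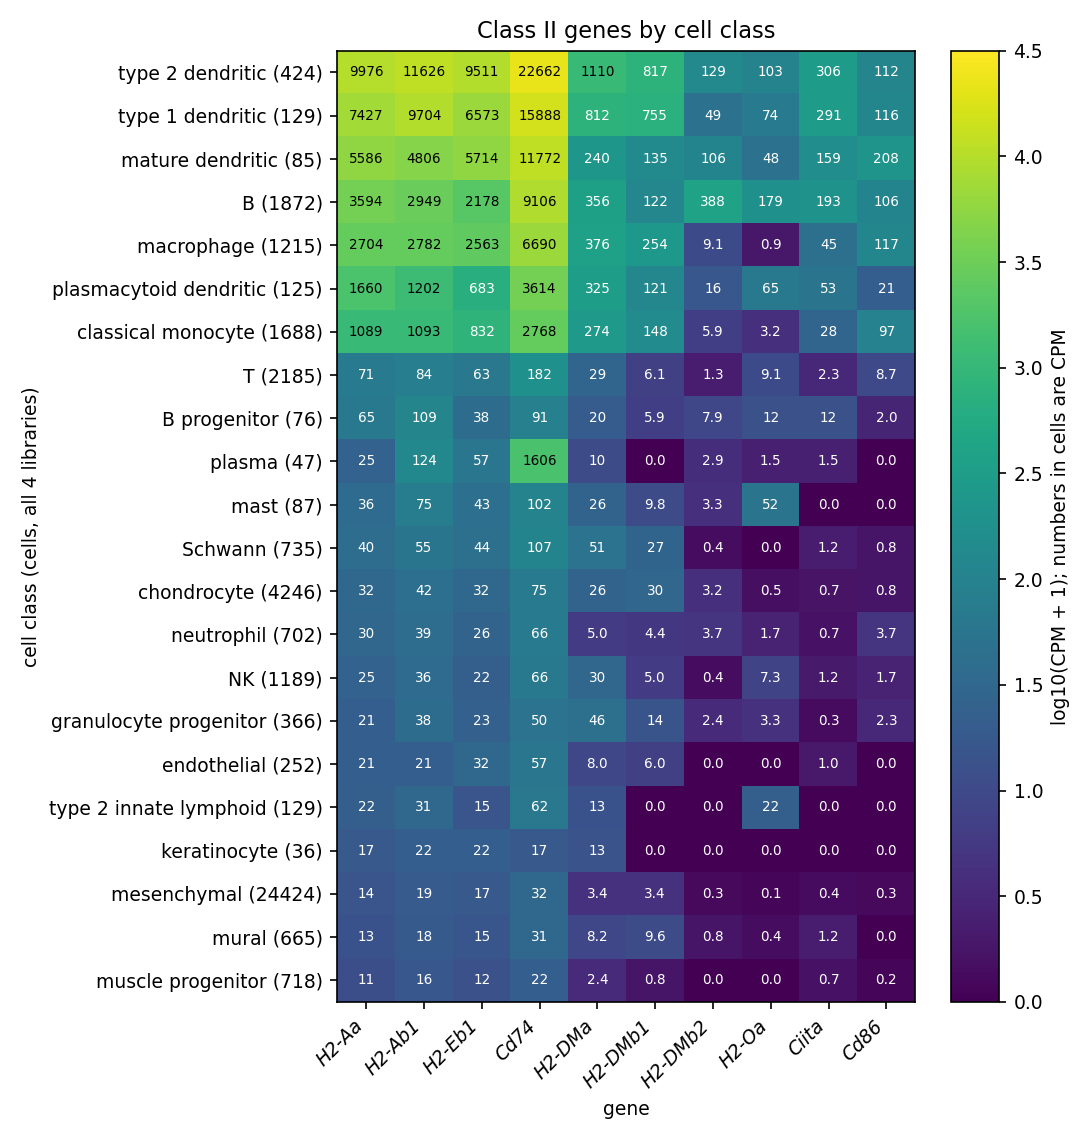
Level of each of the 10 genes (columns) in each cell class (rows, with the number of cells), all 4 libraries pooled, with log10(CPM + 1) as colour and CPM printed in each cell of the map. The 3 chains and Cd74 were high in 7 classes, from 31112 CPM for the summed chains in type 2 dendritic cells to 3015 CPM in classical monocytes, whereas H2-DMb2 was highest in B cells.

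**Figure D2:**
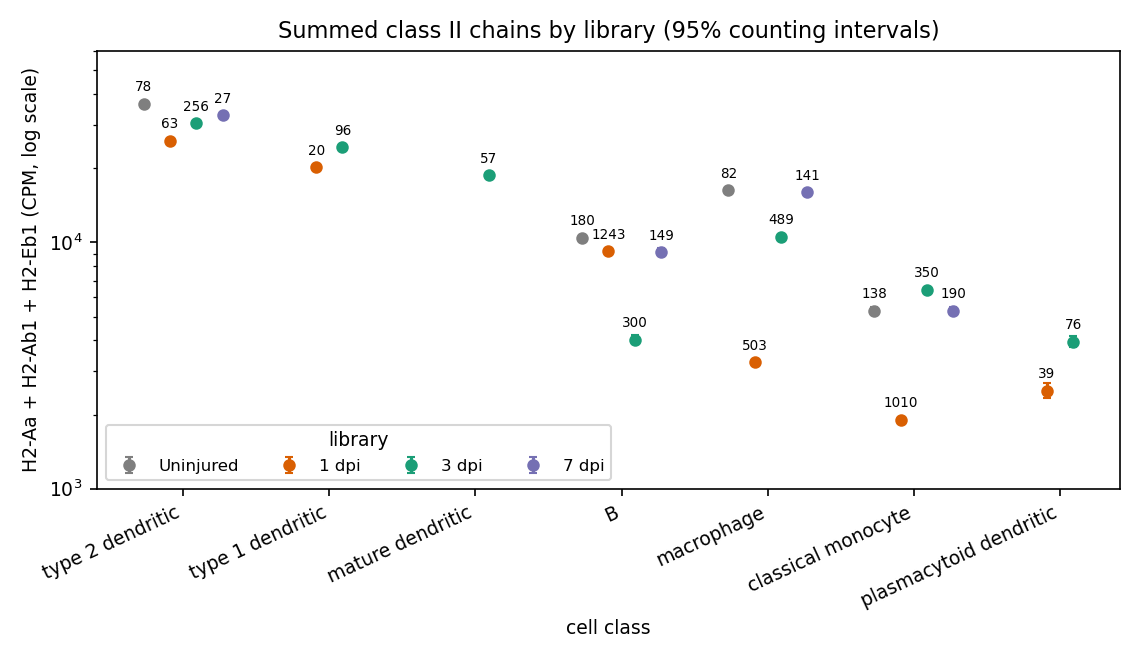
Summed CPM of H2-Aa, H2-Ab1 and H2-Eb1 on a log axis for 7 antigen-presenting classes, with 1 point per library of at least 20 cells, its number of cells above it and 95% counting intervals as bars (often smaller than the point). Macrophages and classical monocytes were lowest at 1 dpi, at 3265 and 1903 CPM, whereas B cells were lowest at 3 dpi, at 4033 CPM.

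Macrophages showed the widest range of the chains between libraries among the 4 classes with 20 or more antigen-presenting cells in every library. Of the 10 genes, 9 had the 20 UMIs set as the minimum for a comparison, and 8 of these were more than 2-fold lower at 1 dpi than in Uninjured muscle, a change seen in 6.54% of all 8939 genes compared. The median log2 difference of the 9 was -2.29, against 0.11 over all genes. At 3 dpi the same 8 genes were more than 2-fold higher than at 1 dpi, where 7.28% of all genes were higher and 5.82% lower, and the median of the 9 was 1.47, against 0.01. None of the 9 differed by 2-fold between 3 and 7 dpi, where 8.04% of all genes were higher and 10.7% lower. At 7 dpi against Uninjured, H2-DMb2 alone was 2-fold lower, where 3.19% of all genes were, and none was 2-fold higher, where 8.5% were. The cells behind these values numbered 82, 503, 489 and 141.

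For the chains, H2-Aa stood at 4932 CPM in Uninjured macrophages, 1168 at 1 dpi, 3686 at 3 dpi and 5054 at 7 dpi. H2-Ab1 followed with 5893, 1103, 3627 and 5426 CPM, and H2-Eb1 with 5451, 994, 3251 and 5470 CPM. All 3 were lowest at 1 dpi and had regained most of the Uninjured level by 7 dpi. Their sum was 4.99-fold lower at 1 dpi than in Uninjured muscle (4.86 to 5.11), 3.24-fold higher at 3 dpi than at 1 dpi (3.17 to 3.31) and 1.51-fold higher at 7 dpi than at 3 dpi (1.48 to 1.55). The log2 differences were -2.32, 1.69 and 0.59, and that of 7 dpi against Uninjured was -0.03 (-0.07 to 0.01).

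The accessory genes of the endosome moved with the chains. Cd74 was at 14553, 2947, 8188 and 12987 CPM in the order of the libraries, and was 4.94-fold lower at 1 dpi (4.81 to 5.07). H2-DMa, the alpha chain of the peptide editor, was at 858, 167, 464 and 658 CPM, and H2-DMb1, its beta chain, at 579, 97.8, 312 and 543 CPM. The Uninjured to 1 dpi difference was 5.14-fold for H2-DMa (4.59 to 5.74) and 5.92-fold for H2-DMb1 (5.14 to 6.82), close to that of the chains. H2-DMb2 was scarce, with 28, 5, 31 and 4 UMIs, or 36.3, 1.37, 12.5 and 6.53 CPM. H2-Oa gave no more than 2 UMIs in any of the 4 libraries. That is below the floor of 3 UMIs, so no difference was detectable for it.

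Ciita and Cd86 behaved differently from the chains in macrophages. Ciita stood at 48.0, 23.4, 71.4 and 65.3 CPM, so its drop at 1 dpi was 2.06-fold (1.36 to 3.06) where that of the chains was 4.99-fold, and its level at 3 dpi was 3.06-fold that at 1 dpi (2.35 to 4.01). Per 1000 chain UMIs there were 2.95 Ciita UMIs in Uninjured macrophages (2.08 to 4.07) and 7.15 at 1 dpi (5.71 to 8.85), then 6.76 and 4.09. Cd86, which delivers the second signal to T cells through CD28, was at 99.9, 117, 122 and 118 CPM. It was the exception among the 9 genes, and the interval of each of its differences between successive libraries held 1 (1 dpi against Uninjured 0.915 to 1.51).

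**Figure D3:**
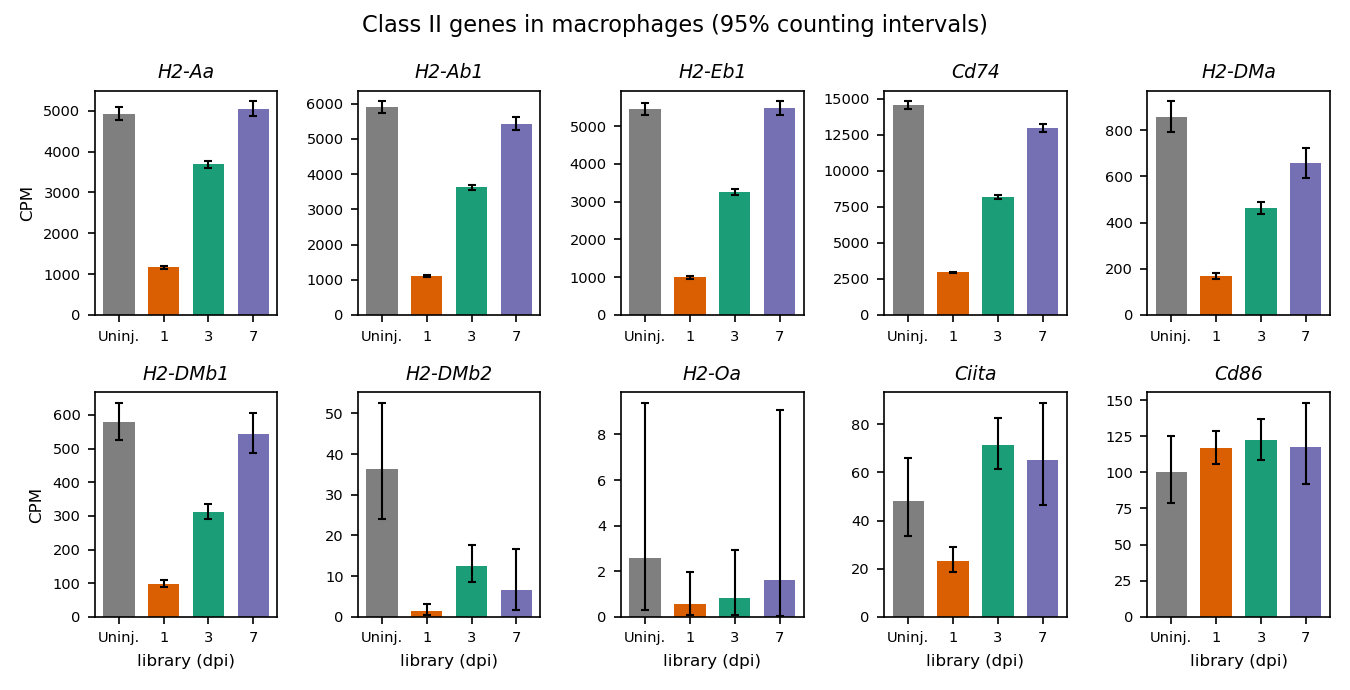
CPM of each of the 10 genes in macrophages of the 4 libraries (1 panel per gene, linear axes from 0, bars for the library value, lines for 95% counting intervals). The 3 chains, Cd74, H2-DMa and H2-DMb1 shared a low at 1 dpi, for H2-Aa 1168 against 4932 CPM, while Cd86 stayed between 99.9 and 122 CPM and H2-Oa rested on 1 or 2 UMIs a library.

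The difference at 1 dpi lay in how many macrophages had chain mRNA as well as in how much they had. Cells without any chain UMI made up 13.4% of the macrophages in Uninjured muscle, 40.6% at 1 dpi, 17.2% at 3 dpi and 12.8% at 7 dpi. Since the libraries differed in depth, cells were also compared at a fixed 1000 UMIs, at which 80.4% of Uninjured macrophages (70.3 to 88.4), 37.9% at 1 dpi (33.6 to 42.3), 72.7% at 3 dpi (68.5 to 76.7) and 83.6% at 7 dpi (76.4 to 89.5) would hold a chain UMI. The 1 dpi interval did not overlap the other 3. At that depth the median macrophage held 17, 0, 7 and 10 chain UMIs. In each library 98.0 to 99.9% of the chain UMIs of macrophages were in cells with at least 5 of them, and such cells made up 81.7, 32.0, 68.3 and 73.1% of the macrophages.

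**Figure D4:**
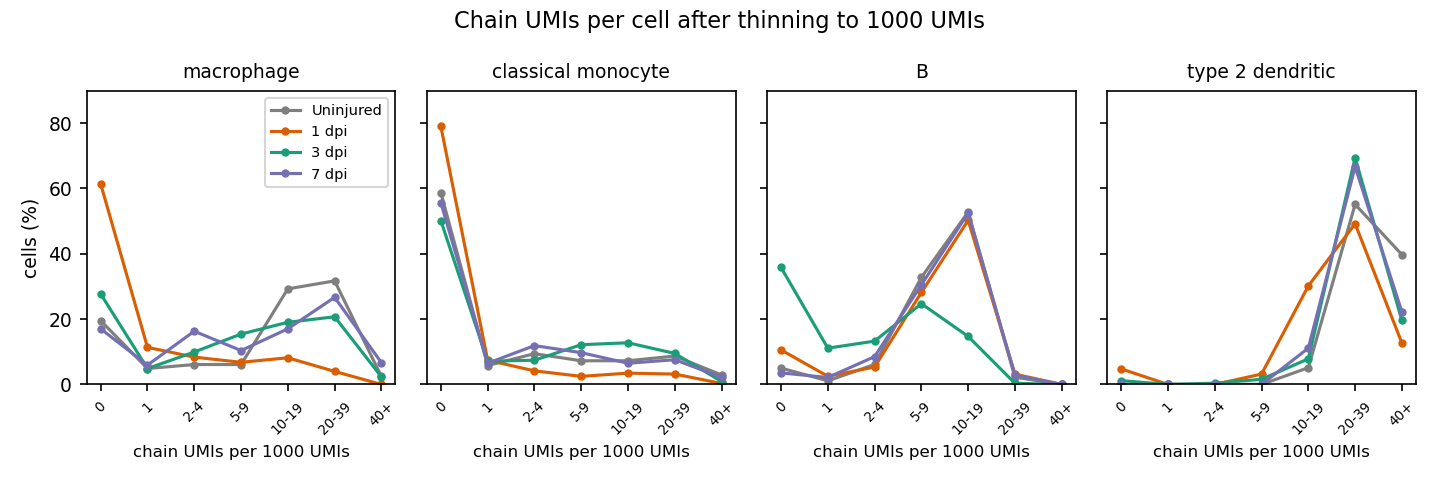
Percent of cells (vertical axis) by chain UMIs per cell after each cell was thinned to 1000 UMIs (horizontal axis, in bins), for 4 classes, 1 line per library. Most macrophages at 1 dpi and most classical monocytes had few or no chain UMIs, whereas type 2 dendritic cells mostly held 20 or more, and B cells at 3 dpi were shifted to lower counts than B cells of the other libraries.

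Macrophages were divided by UMIs of Ccr2, the receptor that monocytes use to enter tissue, and of Lyve1, Timd4 and Folr2, markers of resident macrophages. Cells with Ccr2 and no resident marker held 18740, 5400, 15655 and 20243 CPM of the chains (55, 157, 236 and 71 cells), so the low at 1 dpi was present within them at 3.47-fold (3.37 to 3.58). Cells with a resident marker and no Ccr2 held 439 CPM at 1 dpi (77 cells) and 2098 at 3 dpi (40 cells). Only 4 such cells were found in Uninjured muscle and 11 at 7 dpi, with 10597 and 9138 CPM. Cells with both or neither kind of UMI were in neither subset. At 1 dpi the subsets were thus 157 and 77 of 503 macrophages. The division also depends on depth, with medians of 8464, 6796, 4976 and 3675 UMIs per macrophage in the 4 libraries. At 1 dpi the Ccr2 cells exceeded the resident cells 12.3-fold (10.8 to 14.1), and at 3 dpi 7.46-fold (6.77 to 8.24). Cd74 differed 9.96-fold between them at 1 dpi (8.80 to 11.3), while Cd86 stood at 131 and 114 CPM with an interval of the ratio that held 1 (0.858 to 1.58). The make-up of the class moved with the library, since Ccr2 cells without resident markers were 67.1% of Uninjured macrophages, 31.2% at 1 dpi, 48.3% at 3 dpi and 50.4% at 7 dpi, and the part of this shift in the class value was not tested beyond the within-subset values.

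Genes of class I presentation, which shows peptides made inside the cell to CD8 T cells, went the other way. Of 6 listed class I genes, 4 exceeded their Uninjured level by more than 2-fold in macrophages at 1 dpi (H2-K1, B2m, Tap1 and Nlrc5), where 17.9% of all genes were, and none was 2-fold lower. Their median log2 difference was 1.31, beside -2.29 for the class II genes. H2-K1, a class I heavy chain, rose from 876 to 1808 CPM, while H2-D1 stood at 1913 and 2301 CPM. Of the 29 other class II pathway genes in the matrices, 26 could be compared, 7 were more than 2-fold higher at 1 dpi and 1 was lower, beside the 17.9 and 6.54% of all genes. Among the higher genes were Nfya, a subunit of the Y box factor, the endosomal protease Ctsb, the costimulatory receptor Cd40 and the cytokine Il10. At 3 dpi against 1 dpi, 2 of 26 were higher and none was lower, a share near that of all genes higher there (7.28%).

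Classical monocytes repeated much of the macrophage pattern. Of the 10 genes, 8 were more than 2-fold lower at 1 dpi than in Uninjured muscle, against 3.81% of all genes, and the exceptions were Ciita and Cd86. These calls rest on the values and not on their intervals. Among the 8, H2-Oa had only 4 UMIs in Uninjured muscle and 18 at 1 dpi, and H2-DMb2 had 10 and 34. None was 2-fold higher, where 23.3% of all genes were. At 3 dpi 9 of 10 were more than 2-fold higher than at 1 dpi, against 7.84% of all genes, with Cd86 the exception, and none was lower, against 6.14%. Between 3 and 7 dpi none of the 9 that could be compared differed 2-fold, where 5.54% of all genes were higher and 15.5% lower. At 7 dpi against Uninjured none of 8 did, where 7.03% of all genes were higher and 2.78% lower. Cd74 stood at 5248, 1880, 5095 and 4630 CPM in the 4 libraries, and H2-DMb1 at 348, 91.6, 249 and 326 CPM. Ciita stood at 33.1, 20.5, 56.8 and 50.9 CPM, and Cd86 at 107, 97.5, 87.7 and 102 CPM. Cd74 and H2-DMb1 were thus lowest at 1 dpi, as in macrophages, and Cd86 spanned a narrow range.

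Type 2 dendritic cells kept their class II mRNA within narrow limits. None of the 10 genes differed 2-fold between 1 dpi and Uninjured muscle, where 2.83% of all genes were lower and 17.6% higher, nor was any at 7 dpi against 3 dpi, where 18.1% were lower and 6.42% higher. The summed chains were 1.41-fold lower at 1 dpi (1.39 to 1.44), and Cd74 went from 29606 to 18674 CPM, then to 20882 and 24198. H2-DMa stood at 1251, 979, 1074 and 1333 CPM and H2-DMb1 at 1038, 677, 740 and 1118 CPM. All of these were lowest at 1 dpi, as in macrophages, but by less than 2-fold.

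Ciita and Cd86 took another course than the chains in type 2 dendritic cells. Ciita stood at 181, 278, 377 and 297 CPM and exceeded its Uninjured level 1.53-fold at 1 dpi (1.23 to 1.92), where the chains were lower. Per 1000 chain UMIs, Ciita UMIs numbered 4.96 (4.17 to 5.85), 10.7 (9.24 to 12.4), 12.4 (11.4 to 13.4) and 9.06 (6.74 to 11.9), so the Uninjured library was lowest in this measure, as it was in macrophages. Cd86 stood at 64.3, 70.1, 139 and 227 CPM, higher in each library than in the one before. It was 3.53-fold higher at 7 dpi than in Uninjured muscle (2.26 to 5.48), the only 1 of the 10 genes past 2-fold in that comparison, where 8.06% of all genes were higher and 6.39% lower, but it rested on 39 and 50 UMIs. H2-Oa stood at 93.9, 59.9, 120 and 157 CPM, and at 3 dpi was 2.01-fold its 1 dpi level (1.43 to 2.88), the only 1 of the 10 past 2-fold between those libraries, where 4.17% of all genes were higher and 3.9% lower.

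B cells differed from the myeloid classes in timing. At 1 dpi none of the 10 genes was 2-fold lower than in Uninjured muscle, where 3.84% of all genes were, and Cd86 alone was 2-fold higher, where 22.1% were. At 3 dpi 8 of 10 were more than 2-fold lower than at 1 dpi, against 6.45% of all genes, and none was higher, against 7.17%. At 7 dpi 7 of 10 were more than 2-fold higher than at 3 dpi, against 5.53% of all genes, and none was lower, against 22.3%. None of the 10 differed 2-fold at 7 dpi from the Uninjured level, where 6.24% of all genes were higher and 5.26% lower. The summed chains stood at 10464, 9190, 4033 and 9139 CPM in 180, 1243, 300 and 149 cells. Cd74 was at 11520, 9439, 4615 and 9879 CPM, and Ciita at 187, 213, 79.7 and 156 CPM. The 3 dpi library was lowest for each of these. The median log2 difference of the 10 genes at 3 dpi against 1 dpi was -1.27, while that of the 6 class I genes was -0.07.

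The B cells at 3 dpi also differed in the detection of Ighd, a gene that marks the maturity of the cell. Cells with a UMI of Ighd, the IgD heavy chain of mature naive B cells, made up 69.4% of B cells in Uninjured muscle, 76.0% at 1 dpi, 34.3% at 3 dpi and 55.7% at 7 dpi. The median depth of B cells was 2426, 2829, 1740 and 1456 UMIs in these libraries, so this share, and the split by Ighd, also depend on depth. At 1 dpi the cells without Ighd UMIs held 1083 CPM of Vpreb3 and 263 CPM of Myb, genes of immature B cells, where those with Ighd held 313 and 38.4 CPM. Cells with Ighd held 10367 CPM of the chains at 1 dpi and 6368 at 3 dpi, a 1.63-fold difference (1.54 to 1.72), smaller than the 2.28-fold difference over all B cells (2.19 to 2.38). Cells without Ighd held 5436 and 2713 CPM. The difference between the libraries was thus present in both kinds of B cell, and how much of it the change in the Ighd share made up was not tested.

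Cd86 in B cells stood at 51.1, 126, 39.8 and 64.0 CPM. The 1 dpi level was 2.47-fold the Uninjured one (1.64 to 3.90), and 2.77-fold higher among cells with Ighd (1.68 to 4.89). In macrophages, by contrast, no interval for Cd86 between successive libraries left out 1.

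The 2 beta chain genes of the peptide editor stood in a ratio that differed between classes. H2-DMb1 and H2-DMb2 are near copies, with 93.7% identical bases over 1220 aligned bases of their transcripts and a longest identical run of 221 bases. Reads from identical stretches cannot be told apart by sequence, so each value is uncertain to that degree. B cells held 319 H2-DMb2 UMIs per 100 of H2-DMb1 (292 to 350), whereas mature dendritic cells held 78.4, type 2 dendritic cells 15.8 (14.2 to 17.5), type 1 dendritic cells 6.56, classical monocytes 3.95 and macrophages 3.56 (2.76 to 4.54). In B cells H2-DMb2 stood at 398, 423, 161 and 364 CPM and H2-DMb1 at 166, 124, 67.5 and 120 CPM, so H2-DMb2 was the higher gene in all 4 libraries. In type 2 dendritic cells H2-DMb2 stood between 126 and 151 CPM and H2-DMb1 between 677 and 1118 CPM, the reverse order in all 4 libraries.

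H2-Oa, the alpha chain of the DM inhibitor, was likewise highest in B cells and lowest in macrophages among the 7 antigen-presenting classes. Per 100 UMIs of H2-DMa it gave 50.3 in B cells (46.4 to 54.5), 20.1 in plasmacytoid and 19.9 in mature dendritic cells, 9.31 in type 2 dendritic cells (8.30 to 10.4), 1.16 in classical monocytes (0.817 to 1.61) and 0.248 in macrophages (0.0997 to 0.512). The macrophage value rests on 7 H2-Oa UMIs beside 2821 of H2-DMa. In B cells H2-Oa stood at 226, 191, 69.3 and 164 CPM, lowest at 3 dpi as the other genes were. Its partner H2-Ob was the more abundant in B cells, with 41.4 H2-Oa UMIs per 100 of H2-Ob (38.3 to 44.7), and the less abundant in type 2 dendritic cells, with 152 (128 to 181). This order was kept in all 4 libraries, though in type 2 dendritic cells the intervals at 1 and 7 dpi held 100. In plasmacytoid dendritic cells 49 H2-Oa UMIs stood beside 7 of H2-Ob.

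**Figure D5:**
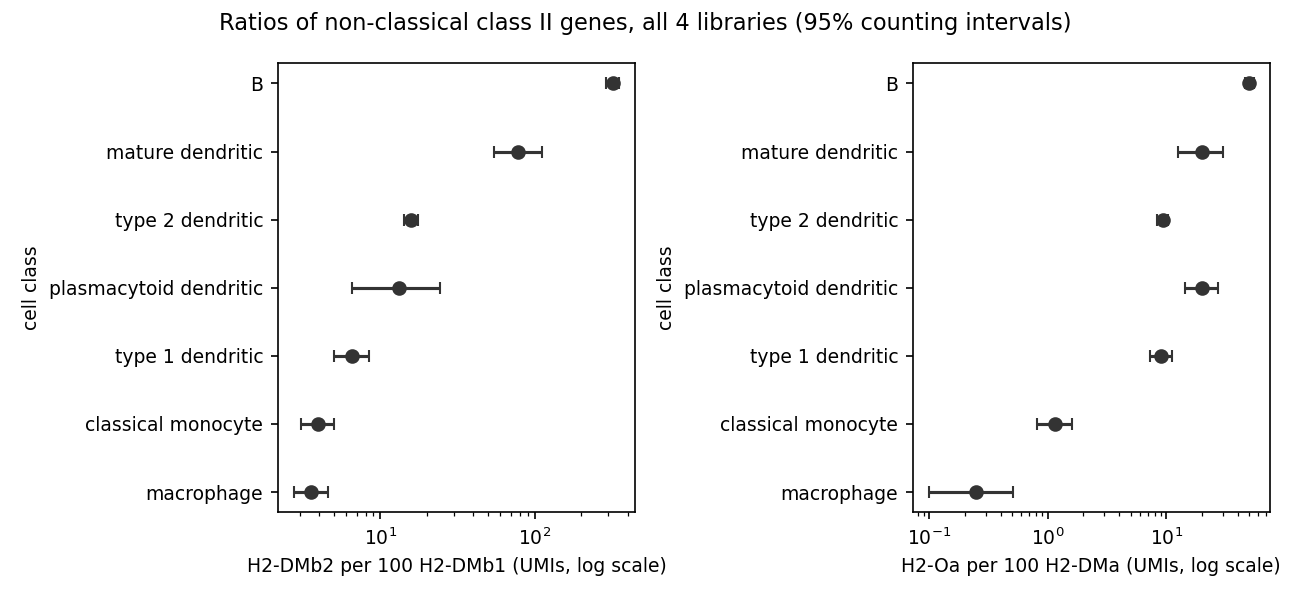
UMIs of H2-DMb2 per 100 of H2-DMb1 (left) and of H2-Oa per 100 of H2-DMa (right) on log axes for 7 antigen-presenting classes, all 4 libraries pooled, with 95% counting intervals as bars. B cells were highest in both, at 319 and 50.3, and macrophages lowest in both, at 3.56 and 0.248.

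H2-Oa was also counted in cells with few chain UMIs. Mast cells at 1 dpi held 15 UMIs in 31 cells, or 89.1 CPM (49.9 to 147), but only 1 in 39 cells at 3 dpi and none in 17 cells at 7 dpi. Over all libraries mast cells held 52.4 CPM (29.9 to 85.0), and type 2 innate lymphoid cells held 12 UMIs in 129 cells, or 21.8 CPM (11.3 to 38.2). T cells held 9.09 CPM (7.08 to 11.5) and mesenchymal cells 0.146 CPM, also over all libraries. In mast cells there were 16 H2-Oa UMIs beside 8 of H2-DMa over all libraries, against 50.3 per 100 in B cells. The 2 genes thus did not keep the ratio they had in B cells. The leading genes of the mast cell class included Prss34 and Mcpt8, genes of basophils, beside Cma1 and Mcpt4. Which kind of cell held these H2-Oa UMIs was not tested.

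Plasma cells separated Cd74 from the genes it serves. Over all libraries the 47 plasma cells held 1606 CPM of Cd74 (1513 to 1704) beside 206 CPM of the summed chains, which gave 779 Cd74 UMIs per 100 chain UMIs (654 to 936). In B cells that figure was 104 (103 to 106), in macrophages 83.1 and in type 2 dendritic cells 72.8. The same plasma cells gave 1 UMI of Ciita and none of H2-DMb1 or Cd86, a count of 0 that allows up to 4.39 CPM. No single library held 20 plasma cells, so these values have no library-by-library check.

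The balance of the chains themselves shifted with the library. H2-Eb1 UMIs per 100 of H2-Aa were 111 in Uninjured macrophages (106 to 116), 85.1 at 1 dpi, 88.2 at 3 dpi and 108 at 7 dpi (103 to 114). In type 2 dendritic cells they were 110 (107 to 113), 87.9, 89.3 and 107 (100 to 115), and in B cells 97.6 (91.0 to 105), 56.0, 59.2 and 73.1 (65.8 to 81.1). In all 3 classes the 1 and 3 dpi libraries were low and the Uninjured library high. H2-Eb1 encodes the chain that lacks its partner in this strain.

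Uninjured mesenchymal cells stood outside this range, with 304 H2-Eb1 UMIs per 100 of H2-Aa (258 to 359) from 595 and 196 UMIs, while mesenchymal cells of the other libraries gave 97.9, 106 and 109. Against H2-Ab1 the Uninjured figure was 210 (182 to 243), beside 87.8 in type 2 dendritic cells and 92.5 in macrophages of the same library. Their H2-Eb1 was spread thinly, over 533 of 8120 cells, at 7.74 CPM. What made up this excess was not tested.

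Mesenchymal cells, the fibroblast-like stromal cells from which the ectopic cartilage and bone of this model form, held little class II mRNA, and the share of cells with any of it must be read beside classes that should lack it. The summed chains stood at 14.0, 43.5, 65.7 and 96.1 CPM. As deposited, 10.9, 31.4, 34.6 and 20.2% of cells held a chain UMI, at median depths of 9226.5, 8142.5, 6207 and 4297 UMIs. At a fixed 1000 UMIs the shares were 1.33% (1.09 to 1.60), 5.11% (4.4 to 5.90), 7.08% (6.40 to 7.79) and 9.25% (8.59 to 9.96), leaving out 0, 4, 129 and 350 shallower cells. In muscle progenitors, the myogenic cells of the tissue, they were 0.920, 7.64, 4.75 and 4.63%, and in neutrophils 3.04, 4.71, 10.0 and 4.35%. The background classes had few cells and wide intervals, such as 2.17 to 8.71% for muscle progenitors at 7 dpi. For this share, in no library did the mesenchymal interval lie above that of either class. In summed chain CPM, muscle progenitors held 8.50, 74.1, 45.1 and 45.6, and neutrophils 40.8, 44.4, 309 and 51.0. By these intervals mesenchymal cells lay above muscle progenitors at 3 and 7 dpi, below them at 1 dpi, and above neutrophils in no library. Of the 177 chain UMIs of neutrophils at 3 dpi, 127 were in 3 cells with 5 or more each. The other 212 neutrophils of that library stood at 89.2 CPM (66.2 to 117.5).

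At 7 dpi the mesenchymal chain UMIs were held by a small set of cells. Cells with 5 or more numbered 5, 2, 44 and 235 in the 4 libraries, and the 235 at 7 dpi, 3.18% of the class, carried 58.7% of its chain UMIs. The cells below that limit stood at 12.7, 43.2, 49.7 and 40.5 CPM, a description only, since the limit was set on the chain UMIs themselves. A UMI of Lyz2, a lysozyme gene of myeloid cells, was found in 69.4% of the 235 cells and in 13.6% of the others, one of Tyrobp, a myeloid signalling adaptor, in 52.8 and 7.36%, and one of Fcer1g, its partner adaptor, in 38.3 and 5.68%. Col1a1, the collagen of mesenchymal cells, stood at 16057 CPM in the 235 cells and 13601 in the others. Leaving out every mesenchymal cell with a UMI of any of these 3 myeloid genes, which were chosen after their values were seen, brought the share at 1000 UMIs from 9.25 to 4.69% at 7 dpi. Cells with these UMIs were not left out of the background classes, and the part of the myeloid genes in the share was not tested.

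The peptide editor genes were higher in Schwann cells and chondrocytes than in mesenchymal cells, by more than the chains were. Among cells with fewer than 5 chain UMIs, Uninjured Schwann cells, the glia of peripheral nerves, held 60.6 CPM of H2-DMa and 25.2 of H2-DMb1, beside 1.41 and 0.820 CPM in mesenchymal cells of that library. The ratios were 43.1 (30.5 to 60.5) and 30.7 (18.0 to 50.6), while that of the chains was 1.08 (0.558 to 1.90). Uninjured natural killer and T cells below the same limit also held H2-DMa, at 38.2 CPM (20.4 to 65.3) and 27.25 CPM (18.98 to 37.9). Each of these classes gave 1 UMI of H2-DMb1. H2-DMa was higher in Schwann than in mesenchymal cells in the other libraries too, at 15.1-fold (9.42 to 23.4), 7.81-fold (2.81 to 17.5) and 7.83-fold (4.98 to 11.8). Chondrocytes, found at 7 dpi, held 23.4 CPM of H2-DMa and 28 of H2-DMb1 beside 5.87 and 7.95 in mesenchymal cells, ratios of 3.99 (3.44 to 4.64) and 3.52 (3.09 to 4.01). Their chains differed 1.31-fold (1.22 to 1.41) and H2-K1 was lower, at 0.603 times the mesenchymal level.

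The genes most like the class II chains across cells were sought over 64 class by library sums of at least 20 cells. Pearson's r with the summed chains on log2(CPM + 10) was 0.99 for Cd74, 0.95 for H2-DMb1 and Ciita, 0.94 for H2-DMa and Cd86, 0.80 for H2-DMb2 and 0.63 for H2-Oa. Outside the family the highest were Cd83 (0.94), a surface protein of activated dendritic and B cells, Fgd2 and Irf5 (both 0.92), Ly86 (0.91), and Ctss (0.91) and Ifi30 (0.90), the endosomal protease and thiol reductase of antigen processing. The RFX subunits that act with Ciita at these promoters were far lower, with 0.17 for Rfx5, 0.08 for Rfxank and -0.12 for Rfxap. These are descriptions over sums that share 4 libraries and whose depth differs.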

How the data were processed

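Single cells of tibial muscle were measured with 10x Genomics chemistry in 4 libraries, 1 per group, grouped by the labels. The deposited counts are UMI counts per gene and cell, which the authors made with Cell Ranger 5.0.0, whose STAR aligner mapped the reads. The labels add that reads could be down-sampled to level the libraries. The submitters' processing notes name Seurat 3.1.1 and mm10, while the 3′ or 5′ chemistry is not given in the sources used here. Cells over 2 SD from the library mean of log UMIs or log genes, or with over 10% mitochondrial UMIs, were removed, as were the 7.5% with the highest doublet scores (scanpy 1.11.5). Classes needed UMIs of 3 listed markers (4 for chondrocytes, 2 for muscle progenitors, keratinocytes and type 2 innate lymphoid cells), non-immune classes no Ptprc UMI, and cells that met the markers of another lineage were left out as mixed. UMIs were summed per class and library and divided by the class total. Intervals are exact Poisson for CPM, Clopper-Pearson for shares and conditional binomial for ratios, at 95%. They cover counting error only, and cells vary more. Shares at 1000 UMIs are expected values of thinning. A floor of 3 UMIs was used for counts of 0. Genes with 20 UMIs over both libraries were compared and named past 2-fold by their value, not their interval. Medians over gene lists were taken on log2(CPM + 10). The intervals were tried on counts simulated with Poisson error alone, the error they assume, and 96.5% held the true value. The simulation had no spread between cells or libraries, so it cannot show how the intervals fare with such spread. Named were the 10 genes in every class, a pathway list of 30 genes (29 found), a class I list of 6, and the 10 genes most like the chains. The genes and lists were chosen with earlier results of these data known. Positions come from GENCODE M21, which matched 99.9% of gene identifiers, and promoter letters from RefSeq. Alternatives were another gate, filter, doublet rule, thinning and averaging over cells. Gene names and letters without an entry in the tables used are not analysed here.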

Additional observations from a re-analysis of the deposited data

Results flagged for a closer look

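The summed chains in B cells at 3 dpi against 1 dpi moved the opposite way to those of 3 myeloid classes: their log2 difference was -1.19, while macrophages, classical monocytes and type 2 dendritic cells were higher at 3 dpi. The chains in classical monocytes at 7 dpi against 3 dpi likewise went the opposite way to macrophages, type 2 dendritic cells and B cells, with a log2 difference of -0.28. With 1 library per time point neither difference between classes was tested.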

How the results depend on the processing

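No direction of the 92 alternatives to the main results or of the 131 alternatives for single genes in macrophages was reversed. Of these, 32 and 54 were counted as moved, and 60 and 77 as the same. No paired analysis was possible because each group was 1 library. For the chains in macrophages at 1 dpi against Uninjured (log2 -2.32) the values were -2.23 with 1 more marker required, -2.20 with mixed cells kept and -2.28 after thinning. At 3 dpi against 1 dpi (1.69) they were 1.62 with doublets kept, 1.58 with 1 more marker and also 1.58 with mixed cells kept, 1.78 after thinning and 1.85 as a mean over cells. At 7 dpi against 3 dpi (0.59) they were 0.51 with all deposited cells, 0.82 with 1 more marker, 0.46 with mixed cells, 0.50 after thinning and 0.41 as a mean over cells. Restricting to Ccr2 macrophages without resident markers, chosen after seeing the data, gave -1.80, 1.54 and 0.37. In type 2 dendritic cells (-0.50) doublets kept gave -0.55 and 1 more marker -0.37, and in B cells (-0.19) all deposited cells gave -0.12, doublets kept -0.10, thinning -0.10 and a mean over cells -0.11. H2-Oa per 100 H2-DMa in type 2 dendritic cells was 7.09 after thinning. Without thinning the mesenchymal shares were 10.9, 31.4, 34.6 and 20.2%, and leaving out cells with a myeloid UMI, also chosen after seeing the data, gave 4.69% at 7 dpi. The number of class II genes past 2-fold in macrophages at 7 dpi against 3 dpi, 0 in the main result, was 1 with all deposited cells, 1 with 1 more marker, 1 with no minimum on UMIs and 4 at 1.5-fold. The causes of these shifts were not tested. Depth limits H2-Oa in macrophages and every class under 20 cells a library.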
